A study of Mus musculus with 15 samples.

Results

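The set described here holds 42 mouse genes, made up of 35 immediate early genes and 7 heat shock genes, out of 18193 genes that had a probe set of their own on the array. The members were taken by name, and each was read from its brightest probe set (by mean log2 intensity) among those annotated with that symbol alone. They were measured in 5 populations of mammary epithelial cells (MECs) on 15 Affymetrix whole-genome arrays, with 3 arrays a population, all from C57BL/6 females. Alveolar luminal cells (AL) were sorted as Lin-YFP+ from Wap-Cre;R26Y mice in midgestation. The cells called alveolar luminal stem/progenitor cells (ALP) were sorted with the same gate from adult virgin Wap-Cre;R26Y mice. In these mice Cre is driven by the promoter of the milk protein gene Wap and switches on a conditional YFP reporter, so the mark stays in descendants of any cell that once expressed Cre. The other populations came from adult virgin wildtype mice and were sorted by surface markers out of 3 cell suspensions. The basal fraction enriched for stem cells (MaSC) was gated as Lin-CD24+CD29hi. The luminal fractions were split by CD61, so that progenitors (LP) were Lin-CD24hiCD29+CD61+ and mature cells (ML) were the CD61- remainder, Lin-CD24hiCD29+CD61-. The labels do not say how many mice stand behind the AL and ALP arrays, so the p-values measure the spread between these samples, which may in part be technical. Genotype and way of sorting changed together between AL or ALP and the other populations, and the effects of population, genotype and sorting cannot be told apart in those comparisons. AL was also the only population from pregnant mice. In every comparison with AL, that with ALP included, the effect of pregnancy cannot be told apart from that of population.

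Immediate early genes are transcribed within minutes of a stimulus such as a growth factor, calcium entry or mechanical stress, from proteins that already exist in the cell. Mitogen-activated protein (MAP) kinases phosphorylate factors bound at serum response elements and cAMP response elements, and the first products are mostly transcription factors (Fos, Jun, Egr and Nr4a families) together with the phosphatases and mRNA-destabilising proteins that end the response. Heat shock genes are induced by heat shock factor 1 when unfolded proteins accumulate, and encode chaperones. Both groups are known to respond when tissue is cut and digested into single cells. Every gland of this series was minced and enzyme-digested before sorting and no undissociated tissue was measured, so the part of dissociation in the levels below was not tested.

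All 42 members exceeded the array's median intensity on all 15 arrays. Array medians ran from 137 to 209.9, with the highest on the third ALP array. Marker genes followed the labels in part. The mean log2 intensity of 6 alveolar genes was 12.6 to 13.1 in AL and at most 10.2 elsewhere. That of 6 basal genes was 13.2 to 13.4 in MaSC and at most 11.98 elsewhere. The 4 mature luminal genes tested gave 12.8 to 13.0 in ML and at most 12.5 elsewhere. The basal genes were not confined to MaSC, at 11.1 to 11.4 in AL and 9.87 to 11.98 in ALP. They gave 8.08 to 8.42 in LP and 7.46 to 8.72 in ML. ALP gave 7.86 to 10.2 for the alveolar genes and 11.9 to 12.5 for the mature luminal genes. The 6 luminal progenitor genes gave 12.01 to 12.18 in LP, which overlapped the 11.7 to 12.1 of ALP. The lineage gate removes CD31+, CD45+ and TER119+ cells. ALP replicate 3 nevertheless stood apart, with a mean log2 intensity of 8 leukocyte genes of 11.8, against 6.99 and 7.13 on the other ALP arrays, and of 7 endothelial genes of 10.95, against 7.85 and 8.85; Ptprc, Cd3e, Cd79a, Pecam1 and Cdh5 of those lists did not pass the filter on low intensities. Fibroblast genes (7 of 7 tested) averaged 11.7 to 12.3 on AL arrays, 12.5 to 13.4 on ALP arrays, 8.71 to 9.42 on MaSC arrays, 12.03 to 12.67 on LP arrays and 6.16 to 6.70 on ML arrays. MaSC replicates 1 and 2 had higher mature luminal genes, at 12.2 and 11.7, than MaSC replicate 3 at 10.3. Values below are dChip-normalised intensities in arbitrary units; replicates are given in the order of their numbers, which have no rank, "log2 difference" is that of the linear model fitted with limma, ± is its standard error (SE, n = 3 arrays a population), and adjusted p is that of Benjamini and Hochberg over 12143 genes.

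The levels of 40 of the 42 members differed among the 5 populations (moderated F test, adjusted p under 0.05), against a background of 84.7% of all genes tested. The members that did not pass were Myc (adjusted p = 0.0885) and Sgk1 (adjusted p = 0.296). The span between the highest and the lowest population mean had a median of 1.80-fold, ran from 1.11-fold for Sgk1 to 10.6-fold for Nr4a1, reached 2-fold in 19 members and reached 5-fold in 8. Those 8 were Egr2, Egr3, Nr4a1, Nr4a2, Nr4a3, Btg2, Ptgs2 and Hspa1a. AL held the highest mean of 13 members, including all 7 heat shock genes, ALP of 12, MaSC of 4, LP of 9 and ML of 4. The lowest mean lay in ML for 20 members and in MaSC for 15, and in ALP for none. These means were not ranked for all genes, so the counts have no background beside them. By a stricter count, all arrays of a population lay below every other array in 12.4% of all genes for ML. That share was 8.06% for MaSC and 0.659% for ALP. All arrays lay above every other array in 12.9% of all genes for AL and 0.774% for ALP. Since each array measured RNA of a whole sorted population, fewer expressing cells and less RNA per cell cannot be told apart.

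**Figure D1:**
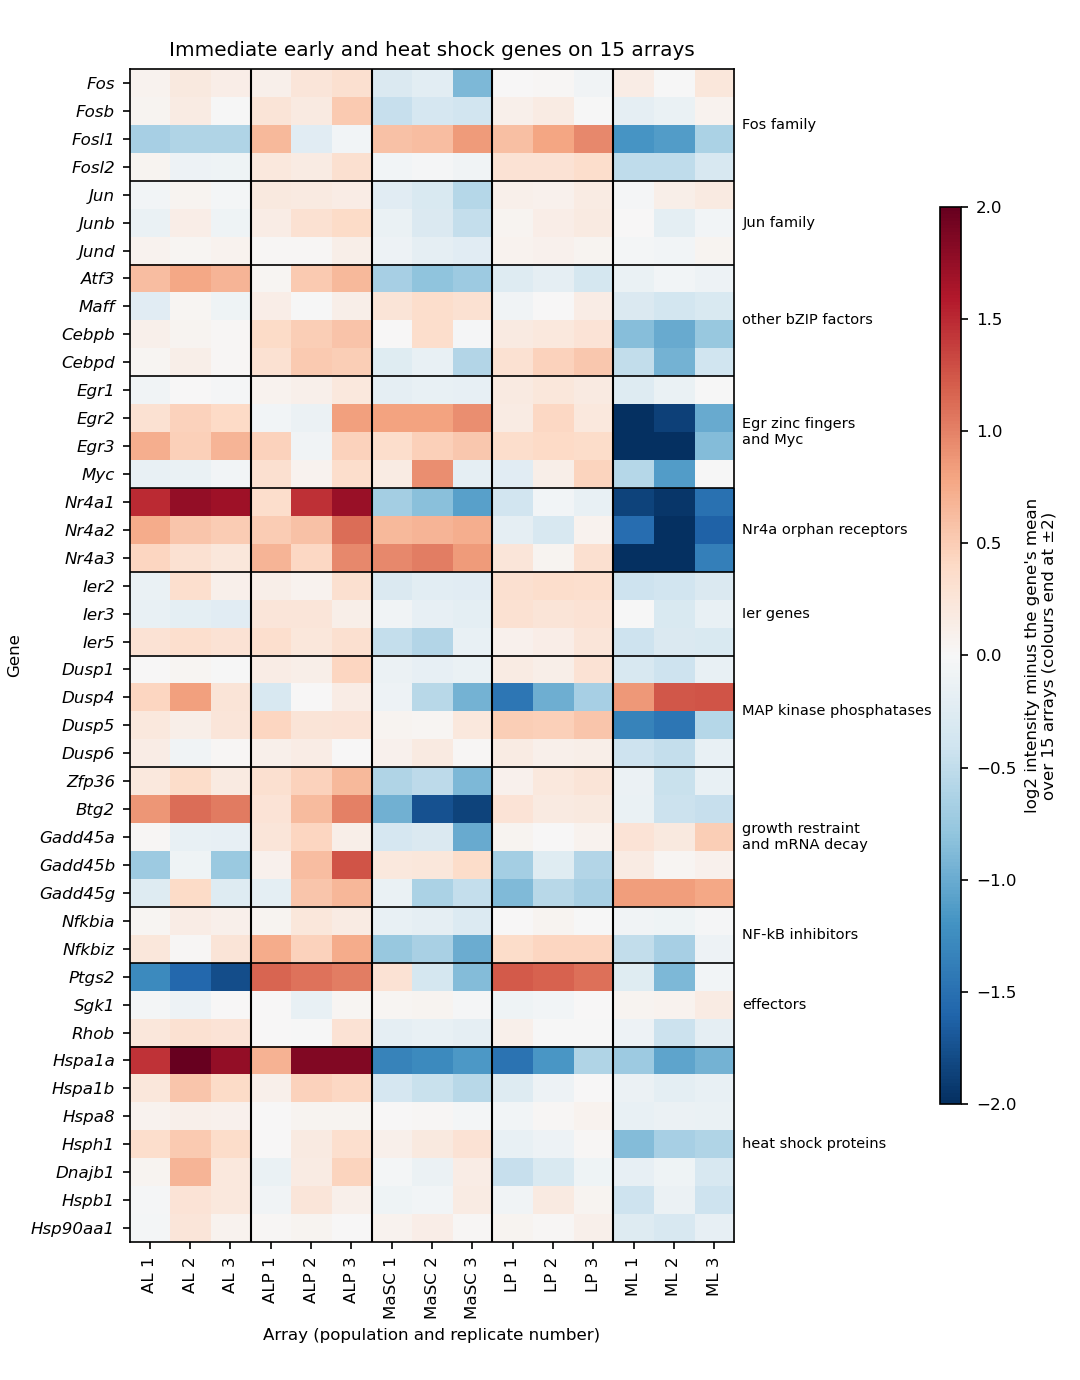
Rows are the 42 genes grouped by role and columns the 15 arrays (3 each of AL, ALP, MaSC, LP and ML); colour is log2 intensity minus the gene's mean over all arrays, and the scale ends at 2 either way. Hspa1a, Nr4a1, Atf3 and Btg2 are red in AL and ALP, and the Egr2, Egr3 and Nr4a rows are blue in ML.

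ML stood lowest in the set as a whole. Compared with ML, 26 members were higher and 2 lower in AL (66.7% passed, against 53.5% of all genes), 32 were higher and 1 lower in ALP (78.6% against 36.7%), and 24 were higher and 2 lower in LP (61.9% against 49%). Genes passing in the higher direction made up 28.7%, 21.1% and 27.3% of all genes in those 3 comparisons, and those in the lower direction 24.8%, 15.6% and 21.7%. The median log2 difference of the members was 0.43 for AL against ML, 0.51 for ALP against ML and 0.40 for LP against ML, beside 0.03, -0.02 and 0.04 for all genes. With arrays centred on their medians, 24 members were higher and 5 lower in AL than in ML. Centring moved the all-gene median of ALP against ML by -0.14, and quantile normalization by -0.12, and 22 members were higher and 3 lower in ALP with centring.

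MaSC was the other low population. The members passing against MaSC were 19 higher and 4 lower in AL (54.8%, against 59.4% of all genes, of which 31.3% higher and 28.1% lower), and 24 higher and 0 lower in ALP (57.1% against 38.4%, of which 21.7% higher and 16.7% lower). In MaSC against LP, 3 were higher and 20 lower (54.8% against 38.9%, of which 15.8% higher and 23.1% lower), and in MaSC against ML, 15 were higher and 11 lower (61.9% against 59.5%, of which 27.1% higher and 32.4% lower). The share that passed was thus close to the background in AL against MaSC and in MaSC against ML, and what differed there was the direction in AL against MaSC, where 45.2% of members and 31.3% of all genes were higher in AL. With limma, 2 members were lower in ALP than in MaSC at an unadjusted p under 0.05. When ALP and MaSC arrays were fitted alone, 11 members passed, all higher in ALP, beside 11.1% of all genes. The median log2 difference was 0.22 for AL against MaSC, 0.36 for ALP against MaSC, -0.23 for MaSC against LP and 0.11 for MaSC against ML, beside 0.05, 0.07, -0.07 and -0.07 for all genes.

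Fewer members passed among AL, ALP and LP. In AL against ALP 8 members passed, all lower in AL (19.0%, against 39.9% of all genes, of which 18.7% higher and 21.2% lower): Fosl1, Fosl2, Junb, Cebpb, Ier3, Gadd45b, Nfkbiz and Ptgs2. Of these, Fosl2 did not pass without AL replicate 2, AL replicate 3 or ALP replicate 3 (adjusted p = 0.0614, 0.0596 and 0.0515), and Nfkbiz without AL replicate 2, ALP replicate 1 or ALP replicate 3 (adjusted p = 0.0857, 0.0652 and 0.06). Junb (adjusted p = 0.0444) did not pass in 10 of the 15 fits with 1 array left out. With only the AL and ALP arrays fitted, Fosl1, Fosl2, Junb and Gadd45b did not pass (adjusted p = 0.0648, 0.0765, 0.102 and 0.0534). The count of 0 higher in AL was 2 at an unadjusted limma p under 0.05. The split was not stable to scaling or to the array with leukocyte genes, since 4 members were higher and 5 lower in AL with centred arrays, 2 higher and 7 lower with quantile normalization, and 4 higher and 5 lower without ALP replicate 3. AL against LP gave 10 higher and 5 lower (35.7% against 45.5%, of which 21.3% higher and 24.2% lower). ALP against LP gave 8 higher and 0 lower (19.0% against 7.54%, of which 3.58% higher and 3.95% lower, with 1 member lower at an unadjusted p under 0.05), namely Atf3, Nr4a1, Nr4a2, Dusp4, Gadd45b, Gadd45g, Hspa1a and Hspa1b. That count fell to 3 without ALP replicate 3, to 2 without ALP replicate 2 or LP replicate 1, to 3 without LP replicate 2, to 4 without LP replicate 3, to 5 without AL replicate 3 or MaSC replicate 2, and to 0 when only the ALP and LP arrays were fitted. Atf3 and Hspa1a passed in each of the fits with 1 array left out. Without ALP replicate 3, 20 members were higher and 1 lower in ALP than in MaSC, and 27 were higher and 1 lower in ALP than in ML.

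**Figure D2:**
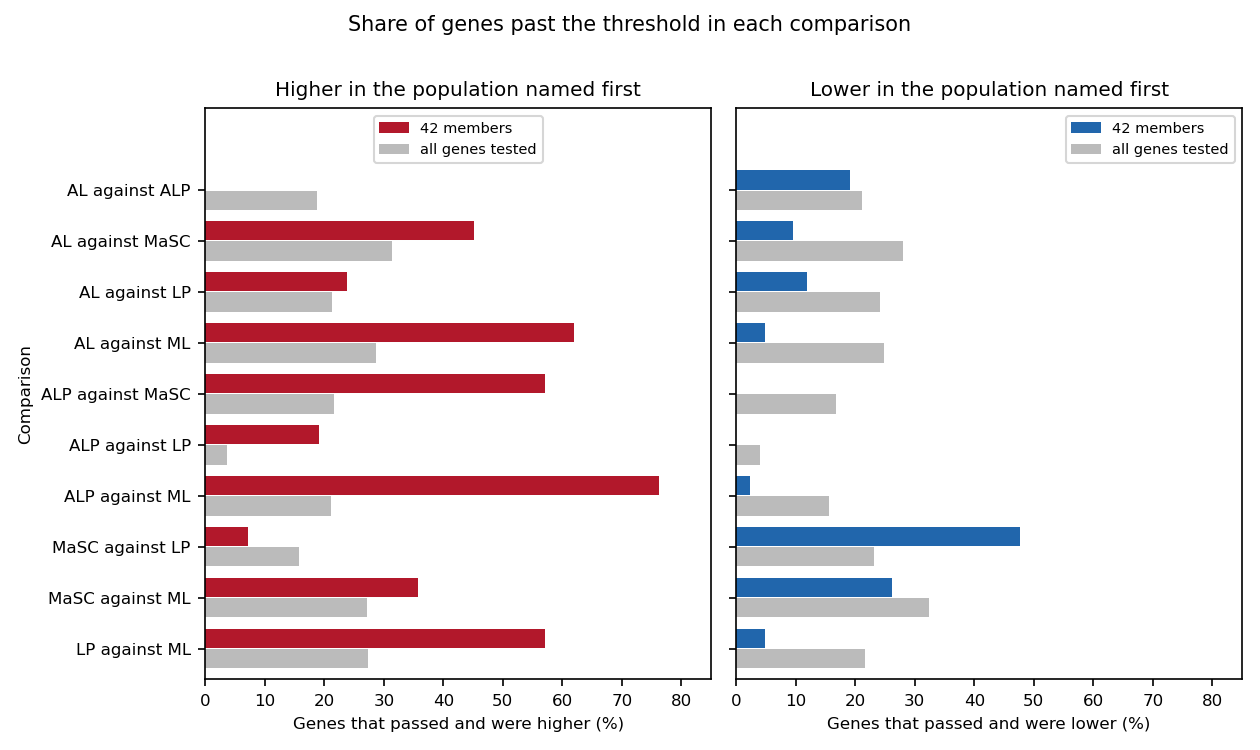
Bars give, for each of the 10 comparisons, the percentage of the 42 members (coloured) and of all 12143 genes tested (grey) that passed and were higher (left) or lower (right) in the population named first. In ALP against ML 76.2% of members were higher, beside 21.1% of all genes, and in MaSC against LP 47.6% were lower, beside 23.1%.

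Of the heat shock genes, all 7 were higher in AL than in ML, beside 28.7% of all genes. Against LP 4 of 7 were higher in AL (21.3% of all genes) and against MaSC 2 of 7 (31.3%), whereas 0 of 7 passed between AL and ALP in limma (39.9% of all genes; 1 member higher at an unadjusted p under 0.05). Their median log2 difference was 0.50 in AL against ML, 0.48 in AL against LP, 0.22 in AL against MaSC and 0.06 in AL against ALP. Hspa1a and Hspa1b encode the stress-inducible Hsp70 proteins, which fold damaged proteins with help from J-domain partners. Hspa1a read 5493, 8752 and 6814 for AL, 3267, 7274 and 7272 for ALP, 795, 829.9 and 905 for MaSC, 725, 895 and 1332 for LP and 1219.8, 970.3 and 1041 for ML. Every AL and ALP array lay above every array of the other populations, and the lowest of them, ALP replicate 1, was still above the highest LP array. In AL the level was 8.19-fold that of MaSC (log2 difference 3.03 ± 0.31, adjusted p = 9.15e-06), 7.24-fold that of LP (log2 difference 2.86 ± 0.31, adjusted p = 2.92e-05) and 6.43-fold that of ML (log2 difference 2.68 ± 0.31, adjusted p = 2.15e-05). ALP showed log2 differences of 2.73 ± 0.31 (adjusted p = 9.17e-05) from MaSC, 2.55 ± 0.31 (adjusted p = 0.00123) from LP and 2.38 ± 0.31 (adjusted p = 0.000135) from ML. The ALP-LP difference did not pass with those 6 arrays fitted alone (adjusted p = 0.0883).

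Hspa1b read 12537, 15688 and 14004 for AL, 11503, 14842 and 14299 for ALP, 8533, 7915 and 7278 for MaSC, 9024, 9989.9 and 10735 for LP and 9928, 9425 and 9669 for ML. Here too the AL and ALP arrays did not overlap the rest, on a narrower scale. The difference from MaSC was 0.83 ± 0.12 (adjusted p = 0.00011) in AL and 0.77 ± 0.12 (adjusted p = 0.000575) in ALP, and from ML 0.54 ± 0.12 (adjusted p = 0.00241) in AL and 0.48 ± 0.12 (adjusted p = 0.0085) in ALP. The genes lie side by side on chromosome 17 and are near-identical in sequence, so their probe sets may each read both transcripts. Their promoters, shown because Hspa1a had the widest heat shock span and Hspa1b is its near copy, shared 247 of the 250 bases before the annotated start (RefSeq, build GRCm38.p6). The window of Hspa1a is chr17:34972157-34972406, minus strand, and that of Hspa1b chr17:34959239-34959488, minus strand. Capitals mark a heat shock element, searched as GAANNTTC or TTCNNGAA, each of which reads the same on both strands.
Hspa1a: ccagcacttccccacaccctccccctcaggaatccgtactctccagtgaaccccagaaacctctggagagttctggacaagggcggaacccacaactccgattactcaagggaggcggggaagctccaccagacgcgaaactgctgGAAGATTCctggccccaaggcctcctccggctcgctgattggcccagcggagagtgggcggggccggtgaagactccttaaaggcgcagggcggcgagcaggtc
Hspa1b: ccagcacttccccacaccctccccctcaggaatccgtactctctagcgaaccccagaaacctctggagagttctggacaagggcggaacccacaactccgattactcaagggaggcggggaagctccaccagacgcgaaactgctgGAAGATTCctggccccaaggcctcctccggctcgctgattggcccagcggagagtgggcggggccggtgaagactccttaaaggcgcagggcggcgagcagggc
In each the element stood at bases -104 to -97 from the start. Promoter windows were found for 32 of the 42 members, and 8 of those (25.0%) held such an element within 250 bases, beside 14.5% of 27025 genes. The 8 included 4 of the 5 heat shock genes that had a window, Hspa1a, Hspa1b, Hsph1 and Hspb1.

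Hsph1, an Hsp110 protein that recharges Hsp70 with nucleotide, followed a different order. It read 10322, 11714 and 10495 for AL, 8208, 9190.1 and 10243 for ALP, 8681, 9347 and 9920.0 for MaSC, 7348, 7601 and 8300.1 for LP and 4479, 5136 and 5358 for ML. All AL arrays were above, and all ML arrays below, the other 12. AL exceeded ML 2.18-fold (log2 difference 1.12 ± 0.10, adjusted p = 5.39e-06), and ALP, MaSC and LP exceeded ML by log2 differences of 0.88 ± 0.10 (adjusted p = 7.71e-05), 0.90 ± 0.10 (adjusted p = 3.42e-05) and 0.64 ± 0.10 (adjusted p = 0.000508). Hspa8, the constitutive Hsc70, read 14818 to 15080.0 for AL, 14109 to 14679 for ALP, 13793 to 14408 for MaSC, 13517 to 14742 for LP and 12716 to 12954 for ML, a span of 1.17-fold. Hsp90aa1, the inducible cytosolic Hsp90, read 10347 to 12537 for AL, 10683 to 11028 for ALP, 10772 to 11634 for MaSC, 10845 to 11351 for LP and 8542 to 9459 for ML. Hspb1, a small heat shock protein that holds unfolded clients, read 8207 to 10057 for AL, 7926 to 9781 for ALP, 7868 to 9359 for MaSC, 7916 to 9446 for LP and 6227 to 7640.2 for ML. The ML arrays lay below all others in these 3 genes, with AL against ML differences of 0.22 ± 0.06 (adjusted p = 0.00836), 0.34 ± 0.08 (adjusted p = 0.00366) and 0.47 ± 0.12 (adjusted p = 0.00726), of which that of Hspa8 did not pass with centred arrays (adjusted p = 0.078). Dnajb1, the J-domain partner of Hsp70, read 6927 to 10600.1 for AL, 6045 to 9051 for ALP, 6132 to 7349.6 for MaSC, 4845 to 6258 for LP and 5344 to 6290.4 for ML. Its AL against ML and AL against LP differences were 0.50 ± 0.18 (adjusted p = 0.0329) and 0.60 ± 0.18 (adjusted p = 0.0173), and without AL replicate 2 they were 0.32 (adjusted p = 0.146) and 0.42 (adjusted p = 0.0754). Dnajb1 also did not pass against ML without ML replicate 1 or 3 (adjusted p = 0.0653 and 0.101), nor against LP without LP replicate 1 (adjusted p = 0.0653).

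**Figure D3:**
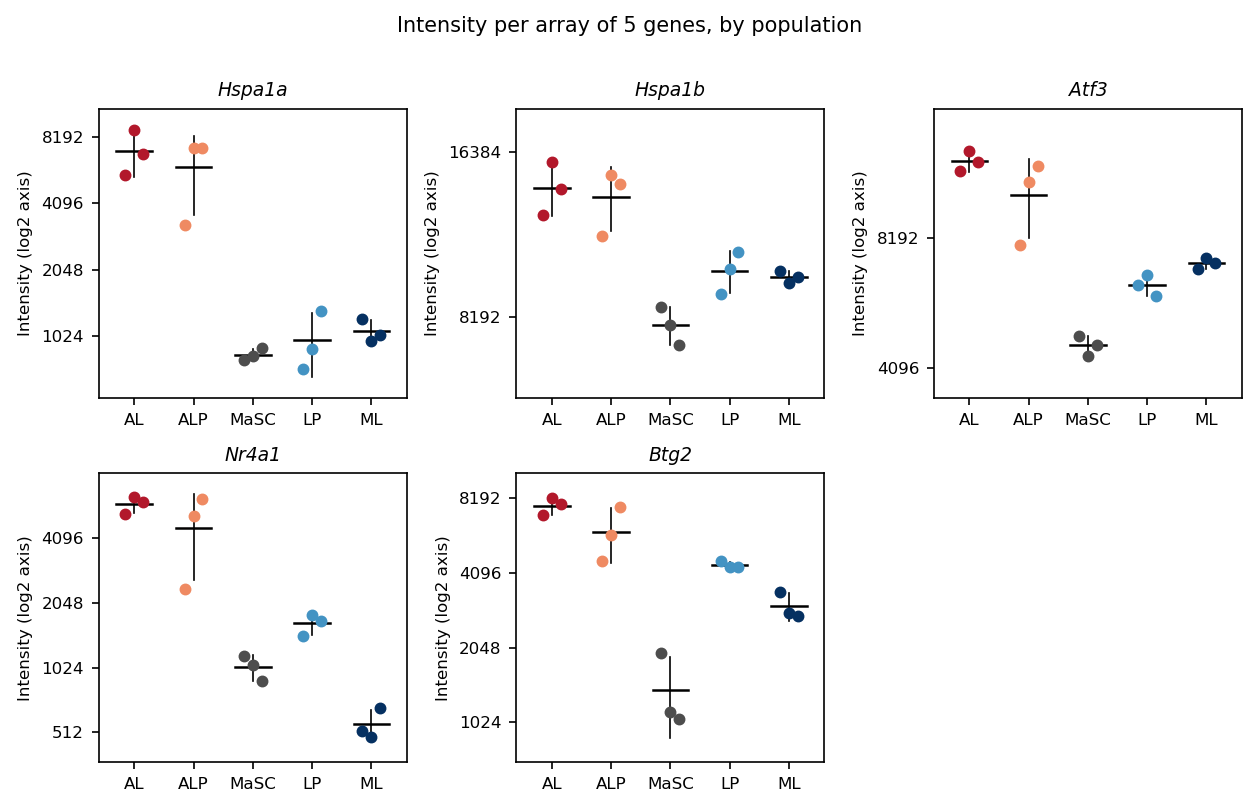
Points are the 3 arrays of each population, horizontal lines the mean and vertical lines ± 1 SD of intensity, on a log2 axis, for Hspa1a, Hspa1b, Atf3, Nr4a1 and Btg2. In each panel all 6 AL and ALP points sit above all 9 MaSC, LP and ML points.

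Atf3, Nr4a1, Btg2, Hspa1a and Hspa1b were the members whose 6 AL and ALP arrays all lay above the 9 arrays of wildtype mice, 11.9% of the set, beside 0.922% of all genes. This grouping follows the genotype label and was looked at after the values were seen. The means of the endothelial and leukocyte lists split the arrays the same way, though single genes in them, such as Tek and Cd74, did not. The mean log2 intensity of the 7 endothelial genes was 7.09 to 7.37 in AL and 7.85 to 10.95 in ALP, against at most 5.89 on the wildtype arrays, and that of the 8 leukocyte genes was 7.58 to 8.22 in AL and 6.99 to 11.8 in ALP, against at most 6.76. Their part in the 5 genes was not tested. All ALP arrays lay above the other 12 in Fosb, Cebpb and Nfkbiz (7.14% of members, beside 0.774% of all genes). ML arrays were all below the other 12 in 15 members (35.7%, beside 12.4% of all genes), and MaSC arrays in 10 (23.8%, beside 8.06%). In the opposite direction, MaSC arrays were above all others in 1 member (2.38%, beside 9.56% of all genes), LP and ML arrays in 2 each (4.76%, beside 4.54% and 11.2%), and AL arrays in 2 (4.76%, beside 12.9%). All AL arrays were below the rest in 1 member (2.38%, beside 10.8%), and all ALP or all LP arrays in 0 (beside 0.659% and 1.77%). These counts are followed by role below.

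The Fos proteins pair with Jun proteins to form the transcription factor AP-1. Fosb and Fos were lowest in MaSC. Fosb read 6025, 6475 and 5746 for AL, 6963, 6588 and 8318 for ALP, 4212, 4597 and 4449.7 for MaSC, 6215, 6467 and 5773 for LP and 5145, 5272 and 6082 for ML. No MaSC array overlapped any other, and MaSC lay below LP by a log2 difference of -0.48 ± 0.10 (adjusted p = 0.00341), while AL and ALP exceeded MaSC by 0.46 ± 0.10 (adjusted p = 0.00233) and 0.72 ± 0.10 (adjusted p = 0.000384). Fos itself, outside the rule by which members are described array by array and added after its values were seen, read 9515, 10310.5 and 9839 for AL, 9655, 10695 and 11260.5 for ALP, 7343, 7789 and 4856 for MaSC, 9116, 9138 and 8627 for LP and 10049, 8935 and 10578 for ML. AL, ALP and ML arrays overlapped, while LP arrays lay below those of AL and ALP and overlapped only ML. MaSC lay below them all, with differences of 0.60 ± 0.15 (adjusted p = 0.00477) for AL against MaSC, 0.69 ± 0.15 (adjusted p = 0.00444) for ALP against MaSC and -0.59 ± 0.15 (adjusted p = 0.00517) for MaSC against ML. ALP against MaSC and MaSC against ML did not pass with only the compared arrays fitted (adjusted p = 0.0924 and 0.0539).

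Fosl1 and Fosl2 encode the Fra proteins, Fos relatives without the strong activating end of Fos, and they were lowest in ML. Fosl1 read 3602, 3774 and 3751 for AL, 8969, 4883 and 5519 for ALP, 8603, 8759.7 and 10353 for MaSC, 8709, 9873 and 11092 for LP and 2524, 2637 and 3665 for ML. AL and ML arrays overlapped at the low end, while the ALP, MaSC and LP arrays were all above them. Fosl1 was 2.65-fold lower in AL than in LP (log2 difference -1.41 ± 0.21, adjusted p = 0.000266) and 2.48-fold lower in AL than in MaSC (log2 difference -1.31 ± 0.21, adjusted p = 0.000239), and ALP, MaSC and LP exceeded ML by 1.10 ± 0.21 (adjusted p = 0.00182), 1.67 ± 0.21 (adjusted p = 5.68e-05) and 1.76 ± 0.21 (adjusted p = 6.02e-05). Fosl2 read 7930.4, 7076 and 7139.6 for AL, 8787, 8522 and 9493 for ALP, 7367, 7520.5 and 7274 for MaSC, 9341, 9282 and 9737 for LP and 5331, 5350.4 and 6099 for ML. Its ML arrays lay below all others, by 0.40 ± 0.08 (adjusted p = 0.00116) against AL, 0.68 ± 0.08 (adjusted p = 6.68e-05) against ALP, 0.40 ± 0.08 (adjusted p = 0.0011) against MaSC and 0.76 ± 0.08 (adjusted p = 2.69e-05) against LP. A second Fosl2 probe set gave the same low ML with a far wider span and turned AL against LP round, as described with the probe sets below.

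Among the Jun genes all 3 had their lowest mean in MaSC. Jun read 9257, 9954 and 9324 for AL, 11033, 10879 and 10589 for ALP, 8221, 7771 and 6491 for MaSC, 10282, 10173 and 10698 for LP and 9437, 10357 and 10841 for ML. MaSC arrays were below every other array, and MaSC differed from LP by -0.48 ± 0.09 (adjusted p = 0.00175) and from ML by -0.45 ± 0.09 (adjusted p = 0.00138). Junb, which often restrains Jun, read 3723, 4486 and 3842 for AL, 4518, 5031 and 5294 for ALP, 3734, 3341 and 2932 for MaSC, 4248, 4457 and 4631 for LP and 4076, 3557 and 3917 for ML. ALP and LP exceeded MaSC, with differences of 0.57 ± 0.11 (adjusted p = 0.00216) for ALP against MaSC and -0.42 ± 0.11 (adjusted p = 0.00973) for MaSC against LP. Jund, the steadily expressed member of the family, read 10955, 10805 and 11053 for AL, 10621, 10612 and 11373 for ALP, 9762, 9289 and 8938 for MaSC, 10979, 11155 and 10866 for LP and 10254, 10037 and 10874 for ML and spanned only 1.18-fold. The MaSC arrays again lay below the others, with a MaSC against LP difference of -0.24 ± 0.07 (adjusted p = 0.0127). With only the compared arrays fitted, this Jund difference did not pass (adjusted p = 0.0698). Nor did that of Junb for ALP against MaSC (adjusted p = 0.0577).

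The other basic leucine zipper factors split. Atf3, a stress-induced repressor, read 11691, 13009 and 12231 for AL, 7898, 11039.5 and 11984 for ALP, 4848, 4363 and 4641 for MaSC, 6377, 6721 and 6009 for LP and 6943, 7358 and 7145 for ML. AL was highest on average and overlapped only ALP, and every MaSC array lay below the rest. AL exceeded MaSC 2.67-fold (log2 difference 1.41 ± 0.13, adjusted p = 4.77e-06), LP 1.93-fold (log2 difference 0.95 ± 0.13, adjusted p = 0.000155) and ML 1.72-fold (log2 difference 0.78 ± 0.13, adjusted p = 0.00035). For ALP the differences were 1.14 ± 0.13 (adjusted p = 0.000101), 0.67 ± 0.13 (adjusted p = 0.0126) and 0.51 ± 0.13 (adjusted p = 0.0103) against MaSC, LP and ML, and those against LP and ML did not pass when only the compared arrays were fitted (adjusted p = 0.14 and 0.0925). Cebpb, which drives luminal lineage differentiation in the mammary gland of mice, read 4734, 4559 and 4464 for AL, 5699.8, 6149 and 6537 for ALP, 4398, 5593 and 4315 for MaSC, 4960.1, 5085 and 5332 for LP and 2437, 2184 and 2595 for ML. ALP arrays lay above all others and ML arrays below all others. ML was lower than AL, ALP, MaSC and LP, with differences of 0.93 ± 0.11 (adjusted p = 2.18e-05), 1.35 ± 0.11 (adjusted p = 4.19e-06), 0.98 ± 0.11 (adjusted p = 2.09e-05) and 1.09 ± 0.11 (adjusted p = 1.69e-05), and AL was lower than ALP (log2 difference -0.42 ± 0.11, adjusted p = 0.00898).

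Cebpd, an acute phase factor of the same family, read 5783, 6052 and 5710.1 for AL, 6934, 8051 and 7849.6 for ALP, 4734, 5030.1 and 3736 for MaSC, 6914, 7738 and 8122 for LP and 3979, 2917 and 4263 for ML. MaSC and ML arrays overlapped at the low end, and all other arrays were above them. AL, ALP and LP exceeded ML by 0.67 ± 0.15 (adjusted p = 0.00242), 1.05 ± 0.15 (adjusted p = 0.000258) and 1.04 ± 0.15 (adjusted p = 0.000192), and MaSC lay below LP (log2 difference -0.76 ± 0.15, adjusted p = 0.00187). Maff, a small Maf protein, read 5061 to 6081 for AL, 5878 to 6531 for ALP, 7104 to 7569 for MaSC, 5665 to 6565 for LP and 4609.6 to 4853 for ML. It was the member whose MaSC arrays lay above all others, with differences of -0.40 ± 0.09 (adjusted p = 0.00185) for AL against MaSC and 0.63 ± 0.09 (adjusted p = 0.000109) for MaSC against ML.

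The Egr zinc finger factors are direct targets of serum response factor. Egr1 spanned 1.28-fold and read 11232, 11805 and 11527 for AL, 12281, 12663 and 13592 for ALP, 10397, 10607 and 10494 for MaSC, 13246, 13703 and 13314 for LP and 9833, 10749 and 11697 for ML. LP arrays were above those of AL, MaSC and ML and overlapped those of ALP, and LP exceeded ML by 0.32 ± 0.07 (adjusted p = 0.00418) while MaSC lay below LP (log2 difference -0.35 ± 0.07, adjusted p = 0.00311). Egr2 and Egr3 were low in ML. Egr2 read 4418, 4917 and 4715 for AL, 3414, 3284 and 6281 for ALP, 6235, 6235 and 6778 for MaSC, 4009.6, 4766 and 4107 for LP and 733, 981 and 1771 for ML. The ML arrays lay below the other 12, and ML replicate 3 was the highest of them. AL exceeded ML 4.32-fold (log2 difference 2.11 ± 0.29, adjusted p = 9.77e-05), and ALP, MaSC and LP differed from ML by 1.93 ± 0.29 (adjusted p = 0.000425), 2.56 ± 0.29 (adjusted p = 2.96e-05) and 1.98 ± 0.29 (adjusted p = 0.000247). Egr3 read 5439, 4546 and 5224 for AL, 4500.1, 3112 and 4514 for ALP, 4162, 4543 and 4765 for MaSC, 4193, 4333 and 4235 for LP and 741, 699 and 1789.7 for ML. Its ML arrays were likewise lowest, and AL exceeded ML 5.19-fold (log2 difference 2.37 ± 0.29, adjusted p = 3.53e-05), with 2.03 ± 0.29 (adjusted p = 0.000271) for ALP, 2.20 ± 0.29 (adjusted p = 7.88e-05) for MaSC and 2.13 ± 0.29 (adjusted p = 0.000143) for LP. No other comparison of Egr2 or Egr3 passed. Myc, a growth regulator grouped here as a further immediate early factor, read 1870.3 to 1997 for AL, 2187 to 2644 for ALP, 1839 to 3970.2 for MaSC, 1777 to 2813 for LP and 958 to 2067 for ML. Most populations overlapped, and of its 10 comparisons only MaSC against ML passed (log2 difference 0.87 ± 0.30, adjusted p = 0.0258), which it did not without MaSC replicate 2 (adjusted p = 0.115), ML replicate 1 (adjusted p = 0.0589) or ML replicate 2 (adjusted p = 0.113).

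The Nr4a proteins are orphan nuclear receptors, induced by cAMP and calcium signals. Nr4a1 had the widest span of the set and read 5262, 6352 and 6034 for AL, 2377, 5162 and 6189 for ALP, 1163, 1051 and 882 for MaSC, 1439, 1799 and 1685 for LP and 520.5, 488 and 664 for ML. The marked populations were high, with ALP replicate 1 the lowest of their arrays, and ML arrays were below all others. AL exceeded ML 10.6-fold (log2 difference 3.41 ± 0.28, adjusted p = 2.19e-06), MaSC 5.72-fold (log2 difference 2.52 ± 0.28, adjusted p = 2.08e-05) and LP 3.59-fold (log2 difference 1.84 ± 0.28, adjusted p = 0.00034). ALP differed from MaSC by 2.05 ± 0.28 (adjusted p = 0.000319) and from ML by 2.94 ± 0.28 (adjusted p = 1.73e-05). Nr4a2 read 4964, 4341 and 4188 for AL, 4209, 4432 and 6416 for ALP, 4635, 4756 and 4893 for MaSC, 2607, 2377 and 3094 for LP and 1023, 519 and 960.3 for ML. AL, ALP and MaSC overlapped, LP lay below them and ML below LP, and LP exceeded ML by 1.74 ± 0.23 (adjusted p = 0.000138). Against ML the differences were 2.49 ± 0.23 (adjusted p = 5.69e-06) in AL, 2.63 ± 0.23 (adjusted p = 1.01e-05) in ALP and 2.58 ± 0.23 (adjusted p = 5.9e-06) in MaSC. Nr4a3 read 7018, 6422 and 6116 for AL, 8336, 6935 and 10212 for ALP, 10198, 10621 and 9466 for MaSC, 6197, 5419 and 6534 for LP and 1075, 728 and 2027 for ML. MaSC and ALP reached the highest arrays, and the ML arrays were again the lowest, by 2.48 ± 0.28 (adjusted p = 2.12e-05) against AL, 2.85 ± 0.28 (adjusted p = 2.06e-05) against ALP, 3.11 ± 0.28 (adjusted p = 5.54e-06) against MaSC and 2.37 ± 0.28 (adjusted p = 6.25e-05) against LP.

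**Figure D4:**
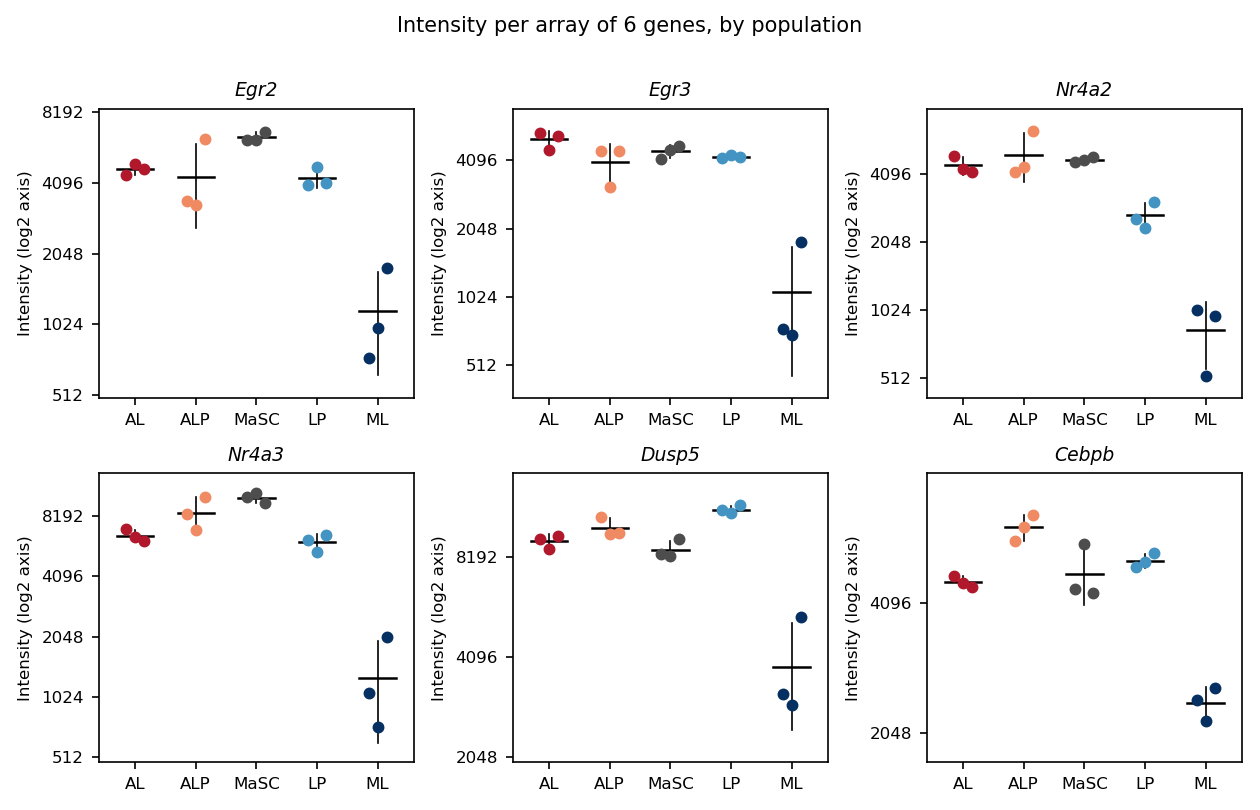
Points are the 3 arrays of each population, horizontal lines the mean and vertical lines ± 1 SD of intensity, on a log2 axis, for Egr2, Egr3, Nr4a2, Nr4a3, Dusp5 and Cebpb. In each panel the 3 ML points sit below the other 12, and in 4 panels, Egr2, Egr3, Nr4a3 and Dusp5, ML replicate 3 is well above ML replicates 1 and 2.

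The fibroblast genes given above were also lowest in ML, at 6.16 to 6.70, and next lowest in MaSC, at 8.71 to 9.42. They were at 11.7 or more on every AL, ALP and LP array. Their part in the low ML and the low MaSC values of the members was not tested.

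The dual-specificity phosphatases (Dusp) remove phosphate from MAP kinases and close the loop. Dusp5, a nuclear phosphatase of ERK, read 9275, 8645 and 9488 for AL, 10796, 9597 and 9625 for ALP, 8322, 8225 and 9244 for MaSC, 11299.9, 11072 and 11691 for LP and 3157, 2928 and 5390.1 for ML. LP arrays lay above and ML arrays below all others, and LP was 3.08-fold higher than ML (log2 difference 1.63 ± 0.18, adjusted p = 3.74e-05), with 1.31 ± 0.18 (adjusted p = 8.6e-05) for AL, 1.44 ± 0.18 (adjusted p = 0.000105) for ALP and 1.22 ± 0.18 (adjusted p = 0.000166) for MaSC. Dusp4, another nuclear phosphatase of the family, ran the other way and read 3763, 4966 and 3343 for AL, 2241, 2828 and 3112 for ALP, 2621, 1919 and 1451 for MaSC, 1031, 1426 and 1762 for LP and 5115, 6603 and 6676 for ML. ML arrays were above all others and LP arrays overlapped only MaSC replicate 3, with differences of -2.15 ± 0.25 (adjusted p = 5.59e-05) for LP against ML, -1.65 ± 0.25 (adjusted p = 0.000216) for MaSC against ML, -1.17 ± 0.25 (adjusted p = 0.00385) for ALP against ML and 1.53 ± 0.25 (adjusted p = 0.00053) for AL against LP. Dusp1, which acts on JNK and p38, read 8198, 8452 and 8169 for AL, 9044, 8915 and 10987 for ALP, 7554, 7288 and 7436 for MaSC, 9143, 8918 and 10043 for LP and 6594, 6142 and 7429 for ML. ALP and LP arrays were above those of ML, by 0.52 ± 0.10 (adjusted p = 0.00172) and 0.48 ± 0.10 (adjusted p = 0.00184). Dusp6, the cytoplasmic ERK phosphatase, read 6843 to 7967 for AL, 7236 to 8005 for ALP, 7316 to 8134 for MaSC, 7750.5 to 8038 for LP and 5175 to 6532 for ML, with ML below the other 12 arrays and a difference of 0.47 ± 0.10 (adjusted p = 0.00199) for LP against ML.

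The promoters of Egr2 and Dusp5 are shown because both genes were lowest in ML and both held a CArG box, the site of serum response factor, found in 3 of 32 members with a window (9.38%: Egr2, Dusp5 and Zfp36) and in 1.62% of all genes. Capitals mark the box, whose consensus is met on both strands by the same stretch. A gene was counted as holding a motif if any of its windows did. RefSeq on GRCm38.p6 gave 5 start windows for Egr2, of which 4 held a CArG box. The Egr2 window shown, at a start inside the annotated gene, is chr10:67537619-67537868, plus strand, with its box at bases -72 to -63, and that of Dusp5 chr19:53528895-53529144, plus strand, with 2 adjoining boxes. The AP-1 site, TGACTCA or TGAGTCA (each the other's reverse complement), was in 0 of the 32 members with a window and in 5.16% of all genes.
Egr2: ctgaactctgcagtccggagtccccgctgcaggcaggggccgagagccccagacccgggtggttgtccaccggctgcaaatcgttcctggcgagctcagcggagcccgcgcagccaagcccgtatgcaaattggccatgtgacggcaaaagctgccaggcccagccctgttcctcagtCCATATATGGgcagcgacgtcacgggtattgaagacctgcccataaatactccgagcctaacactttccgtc
Dusp5: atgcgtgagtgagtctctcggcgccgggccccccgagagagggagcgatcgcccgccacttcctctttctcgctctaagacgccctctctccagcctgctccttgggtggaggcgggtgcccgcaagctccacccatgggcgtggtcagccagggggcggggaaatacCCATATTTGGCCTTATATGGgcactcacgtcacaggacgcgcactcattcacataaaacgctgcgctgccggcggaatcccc

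Of the genes that slow growth or destroy mRNA, Btg2, Zfp36 and Gadd45a were lowest in MaSC. Btg2, an antiproliferative protein that recruits deadenylases, read 6987, 8211 and 7767 for AL, 4570.0, 5849 and 7587 for ALP, 1944, 1129 and 1054 for MaSC, 4565, 4314 and 4337 for LP and 3448, 2813 and 2749 for ML. AL and ALP lay above the rest, though ALP replicate 1 and LP replicate 1 were almost level, and MaSC lay below the rest. AL exceeded MaSC 5.77-fold (log2 difference 2.53 ± 0.22, adjusted p = 3.76e-06), LP 1.73-fold (log2 difference 0.79 ± 0.22, adjusted p = 0.0131) and ML 2.56-fold (log2 difference 1.35 ± 0.22, adjusted p = 0.000354), and MaSC was 3.33-fold lower than LP (log2 difference -1.74 ± 0.22, adjusted p = 0.000152). ALP exceeded MaSC (log2 difference 2.15 ± 0.22, adjusted p = 5.93e-05) and ML (log2 difference 0.98 ± 0.22, adjusted p = 0.0058). Its promoter window, chr1:134079156-134079405, minus strand (RefSeq, GRCm38.p6), is shown for the cAMP response element TGACGTCA (the same on both strands, in capitals, bases -166 to -159), which 3 of 32 members (9.38%: Maff, Dusp1 and Btg2) and 1.77% of all genes held.
Btg2: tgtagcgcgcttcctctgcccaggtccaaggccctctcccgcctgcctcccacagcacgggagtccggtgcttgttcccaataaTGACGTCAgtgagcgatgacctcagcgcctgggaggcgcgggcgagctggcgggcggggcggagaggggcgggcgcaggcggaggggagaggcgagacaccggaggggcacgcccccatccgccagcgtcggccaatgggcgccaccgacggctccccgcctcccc

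Zfp36 encodes tristetraprolin, which destroys mRNAs with AU-rich elements, and read 8098, 9028 and 7918 for AL, 8691, 9601 and 10895 for ALP, 4584, 4876 and 3756 for MaSC, 7442, 8092 and 8393 for LP and 6432, 5104 and 6286 for ML. MaSC arrays were below all others, with a MaSC against LP difference of -0.86 ± 0.13 (adjusted p = 0.000347), and AL and ALP exceeded MaSC by 0.93 ± 0.13 (adjusted p = 8.61e-05) and 1.15 ± 0.13 (adjusted p = 8.97e-05). Gadd45g, a stress sensor that feeds into p38, read 4581, 7085 and 4562 for AL, 4787, 7978 and 8620.5 for ALP, 4982, 3513 and 3904 for MaSC, 2945, 3733 and 3486 for LP and 9687, 9770.5 and 9346 for ML. ML arrays lay above all others, and MaSC and LP differed from ML by -1.23 ± 0.23 (adjusted p = 0.000863) and -1.51 ± 0.23 (adjusted p = 0.000316), AL by -0.86 ± 0.23 (adjusted p = 0.00814). Gadd45a, its p53 target relative, read 5778 to 6577 for AL, 6964 to 8649.7 for ALP, 3213 to 5286 for MaSC, 6478 to 6765 for LP and 7412 to 9089.8 for ML, with MaSC below the rest and a MaSC against ML difference of -0.87 ± 0.17 (adjusted p = 0.00101). Gadd45b, of the same family, read 1904 to 2998 for AL, 3394 to 7641 for ALP, 3679 to 4109 for MaSC, 1998 to 2687 for LP and 3266 to 3567 for ML, and was lower in AL than in ALP (log2 difference -1.17 ± 0.25, adjusted p = 0.00372; adjusted p = 0.0534 with only those arrays fitted).

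The Ier genes were named for their immediate early response. Ier5, which assists heat shock factor 1, read 9458, 9805 and 9461 for AL, 9862, 9069 and 9722 for ALP, 5600.4, 5156 and 6979 for MaSC, 8252, 8517 and 9149.7 for LP and 5807, 6360.4 and 6265 for ML. AL and ALP arrays overlapped at the top, and MaSC and ML overlapped at the low end. ALP exceeded ML by 0.64 ± 0.10 (adjusted p = 0.00065), and LP exceeded ML by 0.49 ± 0.10 (adjusted p = 0.00226). AL against MaSC gave 0.71 ± 0.10 (adjusted p = 0.000126), but the dimmer probe set of Ier5 gave -0.57 (adjusted p = 0.0225). Ier3, which prolongs ERK signalling, read 9344, 9057 and 8793 for AL, 12247, 12260.3 and 11246 for ALP, 9820.0, 9178 and 9036 for MaSC, 12708, 12348 and 12596 for LP and 10299.5, 8311 and 9281 for ML. LP arrays were above all others, and ALP arrays next, and AL was lower than both ALP (log2 difference -0.39 ± 0.08, adjusted p = 0.00317) and LP (log2 difference -0.47 ± 0.08, adjusted p = 0.000885). Ier2 read 2753, 3791 and 3246 for AL, 3252, 3147 and 3755 for ALP, 2473, 2597 and 2586 for MaSC, 3765, 3825 and 3785 for LP and 2261, 2298 and 2458 for ML. ML arrays lay below all others, and LP exceeded both ML (log2 difference 0.70 ± 0.11, adjusted p = 0.000341) and MaSC, with a MaSC against LP difference of -0.57 ± 0.11 (adjusted p = 0.00163).

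Both inhibitors of NF-kB in the set were low in MaSC. Nfkbiz, the atypical nuclear inhibitor, read 4680.4, 4061 and 4821 for AL, 6714, 5495 and 6721 for ALP, 2378, 2547 and 2007 for MaSC, 5185, 5395 and 5385 for LP and 2845, 2520.3 and 3744 for ML. ALP arrays were above all others and MaSC arrays overlapped only ML. ALP exceeded MaSC 2.73-fold (log2 difference 1.45 ± 0.15, adjusted p = 5.13e-05) and ML 2.10-fold (log2 difference 1.07 ± 0.15, adjusted p = 0.000214), AL exceeded MaSC by 0.97 ± 0.15 (adjusted p = 0.000169), and MaSC lay below LP (log2 difference -1.21 ± 0.15, adjusted p = 0.000104). Nfkbia, which holds NF-kB in the cytoplasm, read 12809.5, 13876 and 13424 for AL, 13058, 14619.5 and 13989 for ALP, 11339.6, 11056 and 10309 for MaSC, 12647, 12934 and 12428 for LP and 11953, 11795 and 12271 for ML. MaSC arrays were below the others, by 0.29 ± 0.07 (adjusted p = 0.00336) for AL against MaSC.

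Of the effectors, Ptgs2 (Cox-2, the inducible enzyme of prostaglandin synthesis) gave the largest difference between AL and ALP among the 42 members. It read 1242, 1015 and 883 for AL, 6718, 6373 and 6101 for ALP, 3677, 2347 and 1648 for MaSC, 7049, 6777 and 6436 for LP and 2529.9, 1608 and 2880.1 for ML. All AL arrays lay below the other 12, and ALP and LP overlapped at the top. Ptgs2 was 6.17-fold lower in AL than in ALP (log2 difference -2.63 ± 0.27, adjusted p = 2.54e-05) and 6.51-fold lower than in LP (log2 difference -2.70 ± 0.27, adjusted p = 1.81e-05), and ALP exceeded ML by 1.49 ± 0.27 (adjusted p = 0.00131). Rhob read 7715, 8127 and 7946 for AL, 6619, 6552 and 8040.1 for ALP, 5797, 5906 and 5827 for MaSC, 7076, 6549.6 and 6569.6 for LP and 6122, 4880.2 and 5827 for ML. AL was highest on average, with differences of 0.44 ± 0.10 (adjusted p = 0.00273) from MaSC and 0.51 ± 0.10 (adjusted p = 0.00124) from ML. Sgk1, a kinase induced by glucocorticoids, read 10229.5, 9759 and 10482 for AL, 10541, 9449 and 10768 for ALP, 10783, 10867 and 10295 for MaSC, 9842, 10141 and 10540.4 for LP and 10865, 11029 and 11783 for ML. The ML arrays lay above those of AL, ALP and LP and overlapped MaSC, over a span of 1.11-fold.

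Genes of the same pathways outside the set were described with 3 lists, whose counts are read beside the backgrounds given above for each comparison. Those of the F test are read beside the 84.7% of all genes that passed it. Of 18 kinases and serum response factors upstream of the immediate early genes, 14 were tested and 13 passed the F test. In AL, 0 were higher and 7 lower than in ALP, 1 higher and 7 lower than in MaSC, 1 higher and 6 lower than in LP, and 3 higher and 8 lower than in ML, with median log2 differences of -0.29, -0.37, -0.24 and -0.32. The 3 genes with the largest F were Rps6ka3, Mrtfa and Map2k1, each highest in MaSC and lowest in AL. Rps6ka3 (RSK2, an ERK-activated kinase) read 3089, 3038 and 2923 for AL, 4709, 4382 and 5113 for ALP, 5923, 5869.9 and 6292 for MaSC, 4991, 4814 and 4943 for LP and 3719.9, 3896 and 3917 for ML. Mrtfa (a coactivator of serum response factor) read 892, 1058 and 810.4 for AL, 1550.0, 1635 and 1501 for ALP, 3272, 2610.0 and 4706 for MaSC, 1521, 1512 and 1666 for LP and 1429, 2159 and 1431 for ML. Map2k1 (MEK1, the kinase of ERK) read 3097, 3050.3 and 2936 for AL, 3653, 4335 and 4517 for ALP, 4808, 5107 and 4791 for MaSC, 3646, 3713 and 3598 for LP and 4353, 4301 and 4475 for ML. The AL arrays of all 3 genes lay below the other 12, and AL was 2.00-fold (adjusted p = 9.68e-07), 3.75-fold (adjusted p = 1.56e-05) and 1.62-fold (adjusted p = 2.67e-05) lower than MaSC.

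Of 33 other immediate early genes 31 were tested and 28 passed the F test. They too were low in ML, where 15 were higher and 5 lower in AL, 24 higher and 0 lower in ALP, 17 higher and 3 lower in MaSC, and 22 higher and 2 lower in LP. The medians of these log2 differences were 0.42, 1.02, 0.36 and 0.77. In AL against ALP 0 were higher and 13 lower (median -0.27), and in MaSC against LP 3 were higher and 11 lower (median -0.21). Ccn2, a matrix-associated growth factor, read 6569, 5975 and 6867 for AL, 5157, 6478 and 5499 for ALP, 8789.7, 7883 and 7345 for MaSC, 5293, 5304 and 4368 for LP and 1287, 999 and 1262 for ML. Plaur, the urokinase receptor, read 2258, 2292 and 2446 for AL, 6171, 4542 and 5252 for ALP, 6179, 6237 and 6969.6 for MaSC, 6529, 6557 and 7190.4 for LP and 5024, 4605 and 5519 for ML. The ML arrays of Ccn2 and the AL arrays of Plaur lay below all others, with differences of 2.08 ± 0.13 (adjusted p = 1.09e-06) for LP against ML in Ccn2 and -1.53 ± 0.11 (adjusted p = 2.32e-06) for AL against LP in Plaur. Ccl2, a monocyte-attracting chemokine, read 611, 1265 and 845 for AL, 2575, 4818 and 12946 for ALP, 526, 473 and 371 for MaSC, 3057, 1689 and 886 for LP and 16.2, 14.9 and 22.4 for ML. Its ML arrays were lowest and its highest array was ALP replicate 3. That array also had the highest means of the leukocyte (11.8), endothelial (10.95) and fibroblast genes (13.4), and the part of such cells was not tested.

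Of 20 heat shock regulators and other chaperones, mostly but not all cytosolic, 17 were tested and 14 passed the F test. In AL, 5 were higher and 1 lower than in ALP, 6 higher and 2 lower than in MaSC, 7 higher and 1 lower than in LP, and 10 higher and 1 lower than in ML, with medians of 0.01, 0.08, 0.18 and 0.27. Among all genes, 18.7%, 31.3%, 21.3% and 28.7% were higher in AL, in the same order. Those lower in AL made up 21.2%, 28.1%, 24.2% and 24.8%. Fkbp4 (FKBP52, a cochaperone of Hsp90) read 3076, 3422 and 3127 for AL, 1546, 1883 and 1481 for ALP, 1936, 1839.5 and 2442 for MaSC, 1639, 1499 and 1736 for LP and 1325, 1379 and 1373 for ML. Cacybp, a partner of calcyclin, read 4954, 5366 and 5207 for AL, 4023, 3735 and 3853 for ALP, 4492, 5295 and 5515 for MaSC, 3638, 3752 and 4029.8 for LP and 2806, 3211 and 2992 for ML. AL arrays of Fkbp4 were above the other 12, by 0.98 ± 0.12 (adjusted p = 9.35e-05) against ALP, while those of Cacybp overlapped MaSC. Serpinh1 (Hsp47), a collagen chaperone of the endoplasmic reticulum, read 2066, 2469 and 2055 for AL, 2105, 2572 and 6679 for ALP, 4223, 5599 and 4124 for MaSC, 2354, 1790.3 and 1725 for LP and 328, 191 and 349 for ML. The ML arrays lay below all others and MaSC exceeded ML by 4.04 ± 0.37 (adjusted p = 5.83e-06). The highest single array was ALP replicate 3, and the part of cells other than MECs in it was not tested.

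For 18 members more than 1 probe set passed the filter, and the span over populations depended on which was read. The population with the lowest mean was the same in the brightest and the dimmest probe set for 17 of 18 genes, Ier5 being the exception, and that with the highest mean for 12. The span was wider in the dimmest probe set for 17 of 18, all but Egr2, with a median of 5.25-fold, against 1.92-fold in the brightest. Hspa8 spanned 1.17-fold in its brightest and 9.38-fold in its dimmest probe set, Hsph1 2.17-fold and 9.10-fold, and Hspa1b 1.78-fold and 7.38-fold. Probe sets of a gene can differ in the transcripts they read and in saturation, and these were not tested. Of 97 calls in these genes, 93 had the same sign in every probe set. The other 4 belonged to Fosl2 and Ier5. For Fosl2 the brightest probe set gave -0.36 ± 0.08 (adjusted p = 0.00333) for AL against LP and the dimmest 1.77 (adjusted p = 0.000107), so the order of AL and LP for this gene is not settled by these arrays. Ptgs2 kept its low AL level against ALP and LP, but AL against MaSC and AL against ML gave -0.13 (adjusted p = 0.811) and -0.0035 (adjusted p = 0.995) in the dimmest probe set. That probe set averaged 113 in AL, 133 in MaSC and 121 in ML, below the array medians of 137 to 209.9. So low a signal does not decide these differences.

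**Figure D5:**
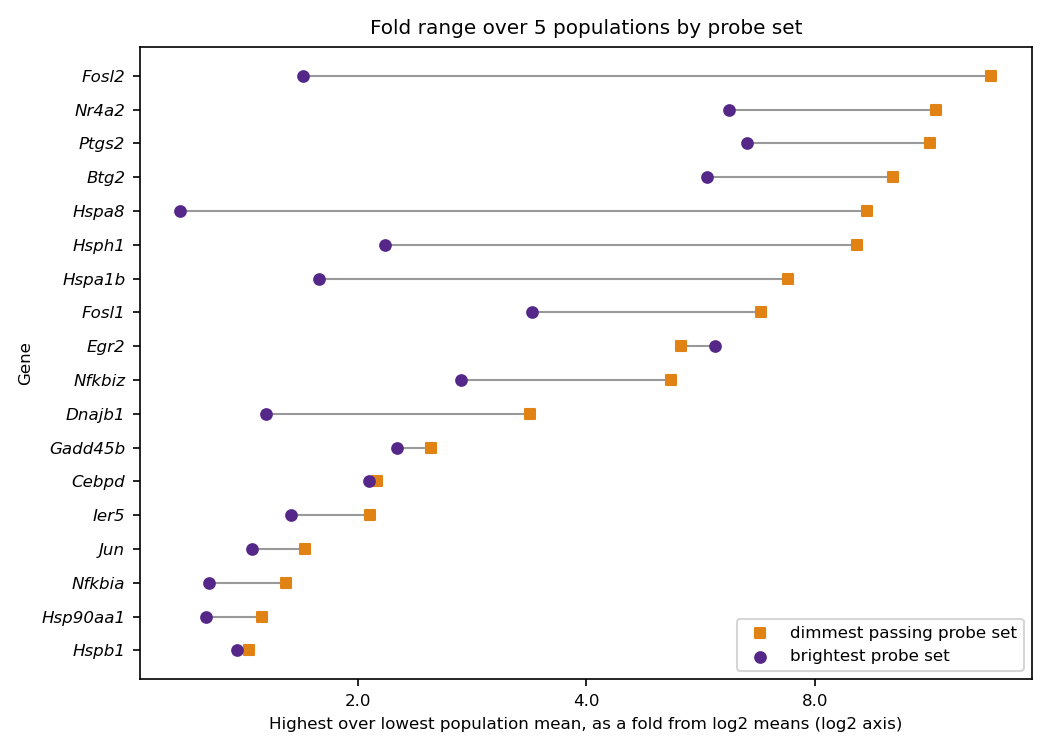
For 18 genes with more than 1 probe set, points give the highest over the lowest population mean, as a fold from log2 means on a log2 axis, in the brightest and in the dimmest probe set. The dimmest lies to the right for 17 of 18 genes, at up to 13.7-fold for Fosl2, whose brightest gave 1.69-fold.

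Members also moved together between arrays of a population. ML replicate 3 exceeded the ML mean in 33 members, of which 31 were immediate early genes, and ALP replicate 3 exceeded the ALP mean in 34. AL replicate 2 exceeded the AL mean in all 7 heat shock genes and ALP replicate 2 the ALP mean in all 7, while AL replicate 1, ALP replicate 1 and LP replicate 1 did so in 0. The all-gene median deviation was 0.03 on AL replicate 2 and -0.02 on ALP replicate 2. It was -0.005 on AL replicate 1, -0.09 on ALP replicate 1 and -0.03 on LP replicate 1. On ALP replicate 1 the median of the members was -0.08, so the array as a whole was lower there. The share of all genes above their population mean was not counted. The median deviation of the members was 0.10 on the log2 scale for ML replicate 3, beside -0.01 for all genes. For ALP replicate 3 it was 0.10, beside 0.10 for all genes, so the members moved there as the median gene did. Not every gene was brighter on that array. The 6 luminal progenitor genes averaged 11.69 on ALP replicate 3, against 12.08 and 11.96 on ALP replicates 1 and 2.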

How the data were processed

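RNA of the sorted populations was amplified with NuGEN Ovation V2 and hybridised to Affymetrix whole-genome mouse arrays by the authors, who normalised the arrays with dChip. The deposited values are linear intensity values, 1 per probe set, of which 659 are exactly 0. The sources used here do not give the dChip version, expression model or background correction. Of 45101 probe sets, 64 were controls, 34945 were annotated with 1 gene symbol, 932 with several and 9160 with none. For each of 18193 genes the brightest probe set by mean log2 value was kept (floor of 1 before log2). Genes above the array median on at least 3 of 15 arrays were tested (12143). A linear model with 1 mean per population was fitted with limma 3.58.1 in R 4.3.3 to all 15 arrays, which share 1 estimate of the spread, with two-sided moderated tests, a moderated F over the 5 populations, and Benjamini-Hochberg adjustment over all genes tested in a comparison (threshold 0.05). Checks on simulated data preceded the fit. Figures were drawn with matplotlib 3.10.9 in Python 3.11.15.

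The members and lists were chosen with earlier results of these data known. Within each role the 3 members with the largest F, and from each list the 3 genes with the largest F, are described array by array, and sequences are shown for members so chosen. Only 3 arrays a population limit the precision. Alternatives were a constant of 16 added before log2, quantile normalization, centring on array medians, no filter and a stricter filter, the mean of probe sets, the dimmest probe set (added after seeing the data), a variance prior with an intensity trend, a replicate block, only the arrays compared, and each array left out in turn.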

Additional observations from a re-analysis of the deposited data

How the results depend on the processing

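Of 214 member calls (a gene past the threshold in a comparison), 133 kept their direction and their side of the threshold under all 25 alternatives, 164 did so under all that left out 1 array, 80 were lost under at least 1 alternative, and 4 reversed. With a robust variance prior that follows intensity, 13 members passed in AL against ALP. With only the arrays compared, the counts were 5 for AL against ALP, 11 for ALP against MaSC and 0 for ALP against LP, and with no filter on low intensities 5 passed for ALP against LP. Leaving out 1 array gave 37 to 40 members in the F test, 6 to 11 for AL against ALP, 19 to 23 for AL against MaSC, 11 to 17 for AL against LP, 26 to 30 for AL against ML, 21 to 27 for ALP against MaSC, 2 to 9 for ALP against LP, 27 to 34 for ALP against ML, 17 to 25 for MaSC against LP, 21 to 26 for MaSC against ML and 23 to 28 for LP against ML. The sign turned for Fosl2 in AL against ALP (0.17 with the mean of probe sets, 0.62 with the dimmest) and in AL against LP (0.70 and 1.77), and for Ier5 in AL against MaSC (-0.57) and AL against ML (-0.11) with the dimmest probe set. The cause was not tested. Same-numbered MaSC, LP and ML arrays had deviations that correlated at -0.011 to 0.17, and differently numbered ones at -0.125 to 0.079. These ranges overlap, so they do not decide whether a number marks a shared suspension. The main fit did not pair the arrays, and the replicate block was run as an alternative. With the replicate block 38 members passed the F test, and the counts were 7 for AL against ALP, 20 for AL against MaSC, 14 for AL against LP, 26 for AL against ML, 25 for ALP against MaSC, 6 for ALP against LP, 31 for ALP against ML, 22 for MaSC against LP, 24 for MaSC against ML and 26 for LP against ML. Intensities carry no read depth, and the number of arrays limits the precision.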
